A study of Homo sapiens with 12 samples.

Results

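Integrins are the receptors by which cells hold on to the matrix around them, and the 10 genes described here encode the integrin subunits ITGA2, ITGA3, ITGA5, ITGA6, ITGAV, ITGB1, ITGB3, ITGB4, ITGB5 and ITGB8. They were chosen by name, as a set of subunits known from epithelial and breast cancer cells, but with earlier results of these data known. All 10 were found among the 64252 gene IDs of the count tables. The cells were MDA-MB-231, a human line from a triple-negative breast cancer with mesenchymal features. They were transfected, by means of Lipofectamine 3000, with plasmid DNA coding for Dicer, the ribonuclease that cuts microRNA precursors to their mature length. The 4 groups were Dicer with mutation 1, Dicer with mutation 2, Dicer with mutation 3 and wild-type Dicer, with 3 poly(A)-selected RNA libraries in each. The labels number the mutations without naming them. Every group received a Dicer plasmid, on top of the Dicer gene that the line itself carries, and cells with an empty plasmid or no plasmid were not analysed here.

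An integrin is a pair of 1 alpha and 1 beta chain, and the pair decides what the cell can bind. ITGB1 joins many alpha chains, among them ITGA2 for collagen, ITGA5 for fibronectin, and ITGA3 and ITGA6 for laminins. ITGB4 joins ITGA6 alone and anchors the laminin receptor of hemidesmosomes to keratin filaments, while ITGB3, ITGB5 and ITGB8 join ITGAV to bind vitronectin, fibronectin or the latent form of TGF-beta. In breast cancer cells these receptors are known for their part in adhesion, migration and invasion.

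All 10 subunits differed among the 4 groups in an F test across the groups, where 83% of all genes tested also did. With mutation 1 the widely shared beta chain ITGB1 and the fibronectin receptor chain ITGA5 rose. So did the vitronectin receptor chains ITGAV, ITGB5 and ITGB3 and the laminin receptor chain ITGB4. With mutation 2 the chains ITGB1, ITGA5, ITGB3 and ITGB4 fell, and ITGA6 rose, as did ITGAV in a call that most alternatives lost. With mutation 3 the laminin receptor chains ITGA3 and ITGB4 rose with ITGAV and ITGB5, and the scarce ITGB8 fell in a call lost in 9 of 18 alternatives. The collagen receptor chain ITGA2 fell in each mutant group against the wild-type mean, although wild-type replicate 1 lay below every mutant library. Its call was lost in 14 of 18 alternatives with mutation 2 and in 7 of 18 with mutation 3.

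The wild-type libraries were not alike, which touches every comparison with wild type. Levels are given in CPM, the count of a gene relative to its library size, with library sizes scaled by TMM (the trimmed mean of M-values). Wild-type replicate 1 lay over 2-fold from wild-type replicates 2 and 3 in 2079 and 2095 genes (log2 of CPM + 1), where wild-type replicates 2 and 3 differed so in 0 genes and libraries of a mutant group in at most 14. Log2 fold changes of the subunits against wild type are therefore also given without wild-type replicate 1 where a change was called. Those of other genes are so given where the call depends on that library, with a few more. Sizes of other genes that are given from all libraries alone may differ in the fit without it. In that fit the libraries of each group lay close together, so its p-values rest on a smaller spread, which may be technical. Library totals ran from 13507341 to 17078273 counts, and DICER1 itself averaged 43.7 ± 1.52 CPM with mutation 1, 45.3 ± 0.731 with mutation 2, 39.4 ± 0.638 with mutation 3 and 40 ± 11 with wild type (SD, n = 3 each; F test adjusted p = 0.557). That count does not separate plasmid from endogenous transcripts. All 8 genes taken as markers of MDA-MB-231 were present. Of the hormone receptor and HER2 genes, ESR1 and PGR stayed below 1 CPM and ERBB2 stood at 68.4 to 111.5 CPM. CDH1 and EPCAM, epithelial genes that are low in this line, summed to 38.1 to 44 CPM with mutation 1, 16.8 to 17.5 with mutation 2, 15.9 to 20.8 with mutation 3, and 31.5, 6.82 and 5.82 in wild-type replicates 1 to 3. Of the immune markers, CD3E was at 0 in every library, PTPRC was at 0.168 CPM or less and CD14 stood at 22.2 to 27 CPM with mutation 1, 5.98 to 9.41 with mutation 2, 6 to 7.14 with mutation 3, and 20.5, 3.63 and 3.43 in wild type. The 3 endothelial markers summed to 1.13 CPM or less in the mutants and to 3.08, 18.5 and 16.5 in wild type, most of it PECAM1. The 5 fibroblast markers, with DCN at 0, summed to 33.3 to 35.8 CPM with mutation 1, 12 to 15.4 with mutation 2, 18.6 to 21.7 with mutation 3, and 22.2, 16.9 and 17.1 in wild type, most of it COL1A1. The 4 basal markers, with KRT5 at 0, summed to 2.78 to 7.56 CPM over all libraries, and the 5 luminal markers to 217 to 433.3 CPM, most of it KRT19. Of the other luminal markers, GATA3 stood at 7.71 to 30 CPM and FOXA1 at 0.131 CPM or less, with ESR1 and PGR as given above. Summed markers of secretory epithelium, 6 genes with none at 0 throughout, came to 1.34 to 1.54 CPM with mutation 1, 0.451 to 0.633 with mutation 2 and 0.519 to 1.25 with mutation 3. In wild type they came to 71.3 CPM in replicate 1, 1131.9 in replicate 2 and 1118 in replicate 3. Mitochondrially encoded genes took 3.34 to 3.46% of counts with mutation 1, 6.39 to 7.67% with mutation 2, 8.77 to 9.02% with mutation 3 and 2.08 to 7.92% with wild type. The part of these in the integrin results was not tested. In RNA from a whole culture, fewer cells of a kind and less RNA per cell cannot be told apart.

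Since Dicer makes microRNAs, the 3′ untranslated regions of the 10 subunits were searched for 7-base matches to the seeds (bases 2 to 8) of 6 microRNAs much studied in breast cancer. Shown here are the let-7a and miR-21 seeds, which both scarce chains ITGB3 and ITGB8 match, and the miR-29a seed, the only 1 of the 6 that ITGB1 matches. The microRNAs are mature sequences from RefSeq (GRCh38.p14), with the seed in capitals.
hsa-let-7a-5p: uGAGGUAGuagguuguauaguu
hsa-miR-21-5p: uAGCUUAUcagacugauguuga
hsa-miR-29a-3p: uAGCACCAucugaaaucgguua
The matching sites, from GENCODE v29 transcripts on GRCh38, are grouped by seed, with the match in capitals.
ITGB3, let-7a site: gattgtatttaccttCTACCTCttggctgc
ITGB8, let-7a site: ttgcacaatatcatgCTACCTCttgaatct
ITGB3, miR-21 site: ttgtgatgtgtcctgATAAGCTgagctcct
ITGB8, miR-21 site: gatgatatcttagaaATAAGCTtttttttt
ITGA2, miR-21 site: aaacaagtaagaaaaATAAGCTcgagtgaa
ITGB1, miR-29a site: attttgtttaatgtcTGGTGCTttctgtca
ITGA2, miR-29a site: atatttaacagctagTGGTGCTggtgtgta
Counted from the first base of the region, the let-7a sites begin at base 1063 of 1612 in ITGB3 and 1606 of 5757 in ITGB8. The miR-21 sites begin at base 237 in ITGB3, 1144 in ITGB8 and 1192 of 4180 in ITGA2, and the miR-29a sites at 902 of 1323 in ITGB1 and 2090 in ITGA2. The let-7 seed match (CTACCTC) was found in 2 of the 10 subunits and in 9.57% of 19128 untranslated regions. The miR-21 match (ATAAGCT) was found in 3 subunits and in 8.57% of all regions, and the miR-29 match (TGGTGCT) in 2 subunits and in 14.2%. The matches of miR-200b (CAGTATT) and miR-17 (GCACTTT) were each found in 2 subunits, against 16% and 21.3% of all regions, and that of miR-221 (ATGTAGC) in 0, against 7.99%. ITGA3, ITGA5, ITGA6, ITGAV, ITGB4 and ITGB5 held none of the 6 matches in the untranslated region searched. A match of letters is a description and no evidence of binding, and microRNA levels were not analysed here.

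**Figure D1:**
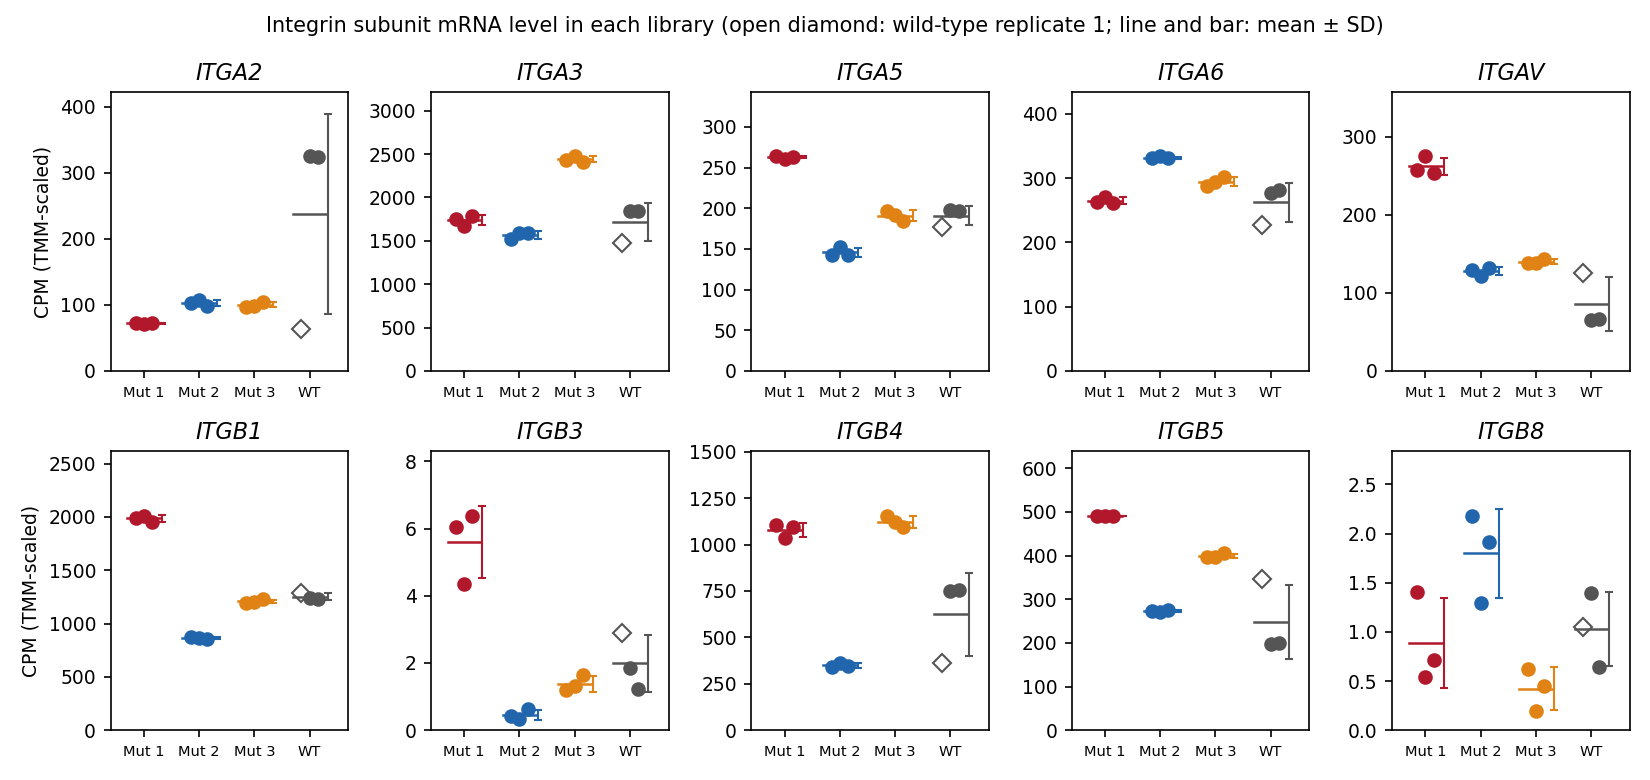
Level of each of the 10 integrin subunits (CPM after TMM scaling, y axis from 0) in the 12 libraries, by group (Mut 1 to Mut 3: Dicer mutations 1 to 3; WT: wild-type Dicer). Points are libraries, lines and bars are the mean and SD of 3, and the open diamond is wild-type replicate 1. ITGB1 lies between 1954.6 and 2012 CPM with mutation 1 and between 856.5 and 874.8 with mutation 2, while wild-type replicate 1 lies apart from replicates 2 and 3 for ITGA2, ITGAV, ITGB4 and ITGB5.

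ITGB1 (ENSG00000150093, chromosome 10, 32900319 to 33005792, minus strand, hg38) encodes the beta chain shared by most of the matrix receptors of these cells. It stood at 1988.8, 2012 and 1954.6 CPM with mutation 1, at 874.8, 862.8 and 856.5 with mutation 2, at 1191.8, 1202 and 1227.2 with mutation 3, while the wild-type replicates 1, 2 and 3 had 1290.6, 1237.2 and 1231.6. No mutation 1 library overlapped another group, all mutation 2 libraries lay below all others, and the mutation 3 libraries lay just below wild type. Against wild type, ITGB1 rose 1.58-fold with mutation 1 (log2 fold change 0.66, standard error (SE) 0.047, adjusted p = 4.37e-07). It fell by 0.54 on the log2 scale with mutation 2 (SE 0.047, adjusted p = 2.42e-05). With mutation 3 the log2 fold change was -0.05 (adjusted p = 0.337). The widest contrast was between mutants, 2.3-fold higher with mutation 1 than with mutation 2 (log2 1.2, adjusted p = 7.34e-09). Wild-type replicate 1 was close to the other wild-type libraries here, and without it the log2 fold changes were 0.69 with mutation 1 and -0.51 with mutation 2. ITGB1 has a processed pseudogene copy elsewhere in the genome, so its level is uncertain to the extent that reads fit that copy.

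ITGA5 (ENSG00000161638, chromosome 12, 54395261 to 54419460, minus strand) encodes the alpha chain that pairs with ITGB1 in the main fibronectin receptor. It measured 263.7, 261 and 263 CPM with mutation 1, 142.7, 152.1 and 142.8 with mutation 2, 196.9, 191.7 and 183.8 with mutation 3, and 177.1, 197.9 and 196.9 in wild-type replicates 1 to 3. The groups lay in the order seen for ITGB1, mutation 1 above and mutation 2 below all others, with mutation 3 and wild type overlapping. The rise with mutation 1 was 1.38-fold (log2 0.46, SE 0.058, adjusted p = 3.95e-05), and with mutation 2 ITGA5 fell by 0.39 on the log2 scale (SE 0.059, adjusted p = 0.00059). With mutation 3 the log2 fold change was 0 (adjusted p = 0.988), and its sign changed among processing alternatives. Without wild-type replicate 1 the log2 fold changes were 0.42 with mutation 1, -0.43 with mutation 2 and -0.04 with mutation 3. Among the 10 subunits the pair with the most similar pattern was ITGA5 and ITGB1, whose centred log2 CPM differed by a root mean square of 0.144 over the 12 libraries. The next smallest differences were 0.28 for ITGAV with ITGB5 and 0.291 for ITGA3 with ITGA6. The measure is also small where 2 genes vary little. For ITGA3 and ITGA6 the 0.291 exceeds their own SDs of 0.268 and 0.165 (log2), so it does not show a shared pattern.

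Because ITGA5 and ITGB1 had the most similar pattern, their promoters are shown, 250 bases before to 50 after the start, from RefSeq on GRCh38.p14. Capitals mark AP-1 (TGANTCA), GC box (GGGCGG) and TEAD (GGAATG) motifs on either strand.
ITGA5 promoter, chr12:54419217-54419516, minus strand: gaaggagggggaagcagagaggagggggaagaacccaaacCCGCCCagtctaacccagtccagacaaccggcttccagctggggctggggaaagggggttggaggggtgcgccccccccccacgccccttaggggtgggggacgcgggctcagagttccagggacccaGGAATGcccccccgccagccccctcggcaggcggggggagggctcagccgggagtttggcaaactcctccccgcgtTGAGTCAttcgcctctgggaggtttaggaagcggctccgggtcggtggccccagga
ITGB1 promoter, chr10:32958181-32958480, minus strand: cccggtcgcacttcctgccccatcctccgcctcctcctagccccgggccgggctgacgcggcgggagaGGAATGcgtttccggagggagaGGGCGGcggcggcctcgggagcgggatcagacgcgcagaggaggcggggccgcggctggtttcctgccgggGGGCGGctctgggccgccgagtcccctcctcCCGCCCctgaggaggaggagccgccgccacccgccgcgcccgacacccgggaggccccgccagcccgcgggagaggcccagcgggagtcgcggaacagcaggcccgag
The ITGA5 window held 1 AP-1 motif, which starts at base 245, with 1 GC box and 1 TEAD motif. The ITGB1 window shown held 3 GC boxes and 1 TEAD motif, with 0 AP-1 motifs. No marked motifs overlapped in either window shown. ITGB1 has another start in RefSeq, whose window (chr10:32935509-32935808) held 0 AP-1, 0 GC box and 0 TEAD motifs. That window held 3 TATA boxes (TATAAA), letters found in 11.5% of promoters and in 0 places in the windows shown. Of 35116 promoters of the same length, 7.71% held the AP-1 letters, 45% the GC box and 14% the TEAD letters. These matches are descriptions, and binding at them was not measured here.

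ITGA3 (ENSG00000005884, chromosome 17, 50055968 to 50090481, plus strand) encodes a laminin receptor chain that pairs with ITGB1. It had 1746.7, 1673.2 and 1788.6 CPM with mutation 1, 1519.5, 1595 and 1596 with mutation 2, 2437.1, 2474.3 and 2407.1 with mutation 3, and 1469.5, 1846.2 and 1845.4 in wild-type replicates 1 to 3. The mutation 3 libraries lay above all others, and the mutation 1 and mutation 2 libraries lay inside the wild-type range. With mutation 3 ITGA3 rose 1.42-fold over wild type (log2 0.5, SE 0.083, adjusted p = 0.000378; log2 0.41 without wild-type replicate 1). It was also higher with mutation 3 than with either other mutant, the log2 fold change being -0.49 for mutation 1 over mutation 3 (adjusted p = 0.000759) and -0.64 for mutation 2 over mutation 3 (adjusted p = 8.38e-05). The log2 fold changes of the other mutants against wild type were 0.01 with mutation 1 (adjusted p = 0.894) and -0.13 with mutation 2 (adjusted p = 0.235). Without wild-type replicate 1 they came to -0.08 (adjusted p = 0.0044) and -0.23 (adjusted p = 9.41e-13), so the call in both depends on that library.

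ITGA6 (ENSG00000091409, chromosome 2, 172427354 to 172506282, plus strand), a laminin receptor chain that can join ITGB1 or ITGB4, varied least among the members. Its levels were 262.8, 270.8 and 261.4 CPM with mutation 1, 331.2, 333.8 and 331.1 with mutation 2, 288.2, 293.9 and 301.6 with mutation 3, and 227, 277 and 282.2 in wild-type replicates 1 to 3. The mutation 2 libraries were the highest and overlapped no other group, and those of mutation 3 lay just above wild type. ITGA6 rose 1.27-fold with mutation 2 (log2 0.34, SE 0.075, adjusted p = 0.00504), the opposite direction to ITGB1, ITGB4 and ITGA5 in the same libraries. The log2 fold change was 0.17 with mutation 3 (adjusted p = 0.0745) and 0.02 with mutation 1 (adjusted p = 0.859). With wild-type replicate 1 left out the values were 0.25 with mutation 2, 0.08 with mutation 3 (adjusted p = 0.02) and -0.07 with mutation 1 (adjusted p = 0.0363). Without wild-type replicate 3 the mutation 3 value was 0.22 (adjusted p = 0.0368). Exons of ITGA6 share 174, 125 and 52 bases with 3 antisense genes, and counting took no account of strand, so reads of partners on opposite strands cannot be told apart. Genes on the opposite strand also share 203 bases with exons of ITGAV, 98 with ITGB8, 48 with ITGA5 and 42 with ITGB1.

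ITGB4 (ENSG00000132470, chromosome 17, 75721328 to 75757818, plus strand), the hemidesmosome chain, separated the mutants most widely among the abundant members. It measured 1103.9, 1037 and 1096.3 CPM with mutation 1, 337.9, 361.1 and 347.8 with mutation 2, and 1155.8, 1119.3 and 1092.4 with mutation 3. The wild-type libraries measured 364.3, 750.5 and 754.5 CPM for replicates 1, 2 and 3. Mutations 1 and 3 overlapped each other and lay above all wild-type libraries, and mutation 2 lay below them, although its highest library and wild-type replicate 1 were only a few CPM apart. ITGB4 rose 1.73-fold with mutation 1 (log2 0.79, SE 0.21, adjusted p = 0.00632) and 1.8-fold with mutation 3 (log2 0.85, SE 0.21, adjusted p = 0.00532). With mutation 2 it fell by 0.84 on the log2 scale (SE 0.21, adjusted p = 0.0105), a call lost when only the 6 libraries of the comparison were fitted (adjusted p = 0.0891). Without wild-type replicate 1 the log2 fold changes were 0.52 with mutation 1, 0.58 with mutation 3 and -1.1 with mutation 2. Between mutants ITGB4 was 3.09-fold higher with mutation 1 than with mutation 2 (adjusted p = 5.78e-05), and the log2 fold change of mutation 2 over mutation 3 was -1.69 (adjusted p = 7.5e-05).

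ITGA2 (ENSG00000164171, chromosome 5, 52989326 to 53094779, plus strand), the alpha chain of a collagen receptor, showed the widest split inside the wild-type group. The mutant libraries held 72.9, 71.3 and 72.2 CPM with mutation 1, 103.3, 107.3 and 98.1 with mutation 2, and 96.7, 98.8 and 104.2 with mutation 3. Of the wild-type libraries, replicate 1 held 63.6 CPM, replicate 2 324.7 and replicate 3 324.3. All mutant libraries thus lay above wild-type replicate 1 and below wild-type replicates 2 and 3. ITGA2 fell against the wild-type mean, with log2 fold changes of -1.72 for mutation 1 (SE 0.44, adjusted p = 0.00511), -1.21 for mutation 2 (SE 0.43, adjusted p = 0.0499) and -1.25 for mutation 3 (SE 0.44, adjusted p = 0.0287). With wild-type replicate 1 left out the log2 fold changes were -2.16, -1.65 and -1.7 for mutations 1, 2 and 3. The mutation 2 call was lost in 14 of 18 alternatives, including the removal of any library except wild-type replicate 1. The mutation 3 call was lost in 7 of 18, including the removal of any mutation 3 library or of wild-type replicate 2 or 3. Mutation 1 lay below mutations 2 and 3 in every library. The log2 fold changes were -0.51 over mutation 2 (adjusted p = 0.318) and -0.47 over mutation 3 (adjusted p = 0.413). Without wild-type replicate 1 they were again -0.51 and -0.47 and passed (adjusted p = 7.88e-24 and 1.82e-20). The estimated spread changed there and the size did not.

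ITGAV (ENSG00000138448, chromosome 2, 186590065 to 186680901, plus strand) encodes the alpha chain shared by the vitronectin and latent TGF-beta receptors. It reached 258.1, 275.1 and 253.2 CPM with mutation 1, 130, 122.1 and 132.1 with mutation 2, and 138.5, 138.1 and 143.4 with mutation 3. The wild-type libraries held 126, 65.1 and 65.9 CPM for replicates 1, 2 and 3. Mutation 1 lay above all other libraries, and mutation 3 lay above wild type, whereas wild-type replicate 1 fell within the mutation 2 range. The rise over wild type was 3.06-fold with mutation 1 (log2 1.61, SE 0.21, adjusted p = 4.83e-05), 1.5-fold with mutation 2 (log2 0.58, SE 0.21, adjusted p = 0.0468) and 1.63-fold with mutation 3 (log2 0.71, SE 0.21, adjusted p = 0.0122). Without wild-type replicate 1 the log2 fold changes were 2.01, 0.97 and 1.1 in the same order of mutations. The mutation 2 call was lost in 14 of 18 alternatives, including the removal of any library except wild-type replicate 1, and the mutation 3 call in 3 of 18, including the removal of mutation 3 replicate 3 (adjusted p = 0.0528). Mutation 1 exceeded mutation 2 (log2 1.03, adjusted p = 0.0011) and mutation 3 (log2 0.91, adjusted p = 0.00476).

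ITGB5 (ENSG00000082781, chromosome 3, 124761948 to 124901418, minus strand) encodes the beta chain of a vitronectin receptor with ITGAV. It had 490.4, 491.4 and 490.4 CPM with mutation 1, 272.4, 270 and 274.5 with mutation 2, 397.1, 395.6 and 405.1 with mutation 3, and 346.4, 197.9 and 200.5 in wild-type replicates 1 to 3. Mutations 1 and 3 lay above all wild-type libraries, and mutation 2 lay between wild-type replicate 1 and the other two. ITGB5 rose 1.98-fold with mutation 1 (log2 0.98, SE 0.17, adjusted p = 0.000464) and 1.61-fold with mutation 3 (log2 0.69, SE 0.17, adjusted p = 0.00576). Only the fit to the 6 libraries compared lost the mutation 3 call (adjusted p = 0.0714), and without wild-type replicate 1 the log2 fold changes were 1.31 with mutation 1 and 1.01 with mutation 3. The mutation 2 log2 fold change was 0.13 (SE 0.17, adjusted p = 0.576), which became 0.46 without wild-type replicate 1 (adjusted p = 9.46e-27). Mutation 2 was lower than mutation 3 (log2 -0.55, adjusted p = 0.02), a call lost in 8 of 18 alternatives, including the removal of any mutation 2 or mutation 3 library, with adjusted p between 0.0552 and 0.0771.

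ITGB3 (ENSG00000259207, chromosome 17, 47253846 to 47311816, plus strand), the beta chain of the other vitronectin receptor with ITGAV, was scarce and had the widest difference between mutants of the 10 subunits. It measured 6.05, 4.36 and 6.38 CPM with mutation 1, 0.422, 0.324 and 0.621 with mutation 2, 1.19, 1.31 and 1.63 with mutation 3, and 2.89, 1.84 and 1.23 in wild-type replicates 1 to 3. These levels rested on 65 to 86 counts per library with mutation 1, 5 to 11 with mutation 2, 19 to 22 with mutation 3 and 19 to 44 with wild type. Mutation 1 lay above and mutation 2 below all other libraries, and mutation 3 overlapped wild type. ITGB3 rose 2.81-fold with mutation 1 (log2 1.49, SE 0.3, adjusted p = 0.00105) and fell by 2.08 on the log2 scale with mutation 2 (SE 0.37, adjusted p = 0.00154). With mutation 3 the log2 fold change was -0.53 (SE 0.32, adjusted p = 0.181). Mutation 1 was 11.9-fold above mutation 2 (log2 3.58, SE 0.36, adjusted p = 6.11e-06) and 4.06-fold above mutation 3 (adjusted p = 0.000425). Leaving out wild-type replicate 1 gave log2 fold changes of 1.84 with mutation 1 and -1.72 with mutation 2. In GENCODE v29 a read-through gene, AC068234.1, shares 2266 bases (51.57%) of the ITGB3 exons on the same strand and was at 0 in every library. Read pairs that fit both genes may not have been assigned, so the ITGB3 level is uncertain.

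ITGB8 (ENSG00000105855, chromosome 7, 20330702 to 20415754, plus strand), a beta chain that with ITGAV binds latent TGF-beta, was near the limit of detection. It measured 1.41, 0.537 and 0.718 CPM with mutation 1, 2.18, 1.3 and 1.92 with mutation 2, 0.626, 0.196 and 0.445 with mutation 3, and 1.05, 1.4 and 0.647 in wild-type replicates 1 to 3. The libraries held 3 to 34 counts of it, and the only groups with no overlap were mutation 3 below mutation 2 and mutation 3 below wild type. Mutation 2 was 4.18-fold above mutation 3 (log2 2.06, SE 0.47, adjusted p = 0.00376). ITGB8 fell by 1.28 on the log2 scale with mutation 3 against wild type (SE 0.5, adjusted p = 0.0452). That call was lost in 9 of 18 alternatives, including the removal of mutation 1 replicate 3, any mutation 2 replicate, mutation 3 replicate 2 or 3, or wild-type replicate 2. It held without wild-type replicate 1 (log2 -1.28, adjusted p = 0.0081). The log2 fold change was 0.79 with mutation 2 (adjusted p = 0.162), and 0.78 without wild-type replicate 1 (adjusted p = 0.0359). With mutation 1 the log2 fold change was -0.22 (SE 0.45, adjusted p = 0.672).

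**Figure D2:**
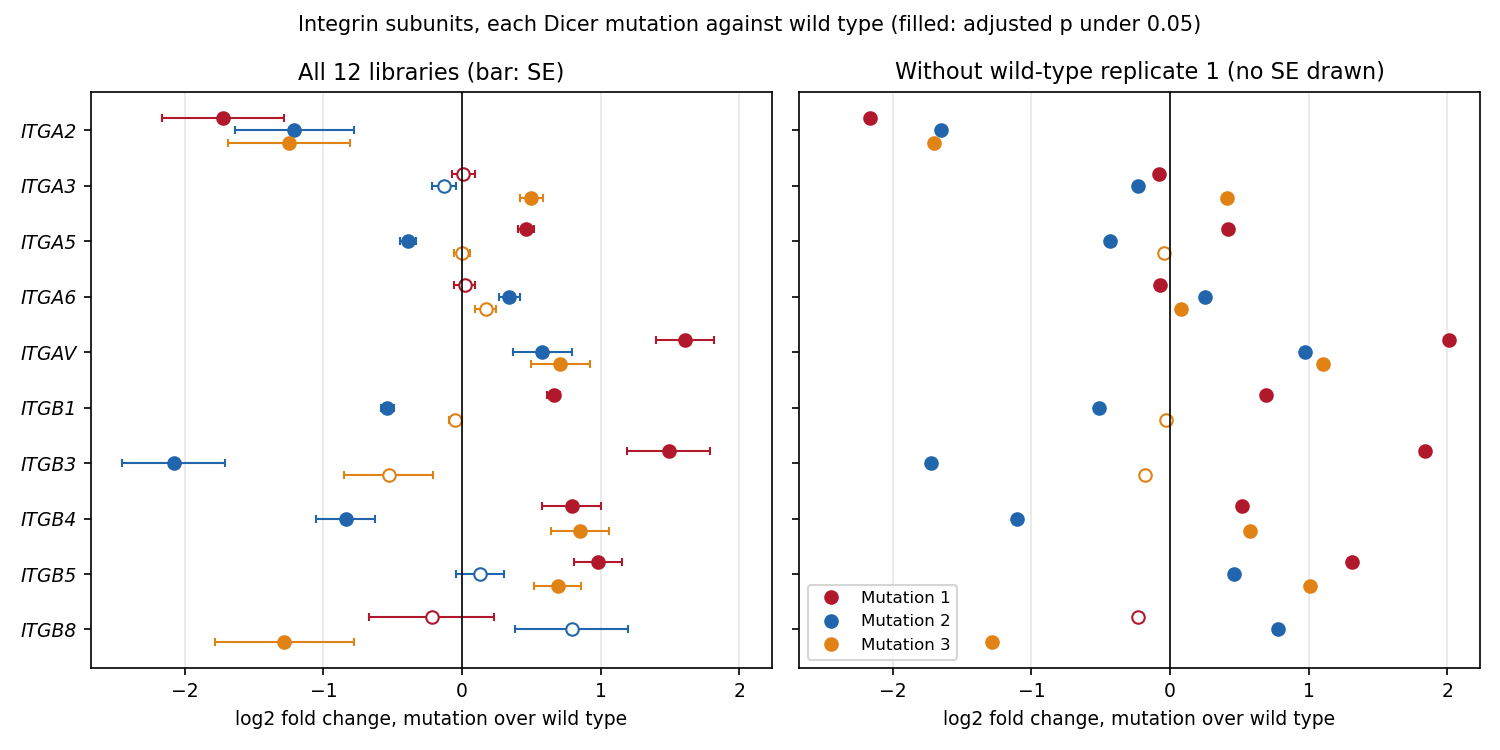
Log2 fold change (x axis) of each integrin subunit (y axis) with each Dicer mutation over wild type, from all 12 libraries with SE (left) and without wild-type replicate 1 (right). Filled points have an adjusted p under 0.05. With mutation 1 ITGA2 lies at -1.72 and ITGAV at 1.61, with mutation 2 ITGB3 lies at -2.08, and ITGA2 lies further below 0 in the right panel than in the left.

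Counted together, 6 subunits were higher, 1 was lower and 3 did not pass with mutation 1 against wild type, and the libraries of 6 did not overlap. Among all 15094 genes tested 69% were called in that comparison with 32.5% higher and 36.5% lower, and 68% had libraries that did not overlap, so the number called among the subunits is close to that background. The median log2 fold change of the 10 subunits was 0.56, against -0.04 over all genes. With mutation 2 against wild type, 2 subunits were higher, 5 were lower and 3 did not pass, where 37% of all genes were called, 16.9% higher and 20.1% lower. Libraries did not overlap in 5 subunits and in 42.6% of all genes, and the median log2 fold change was -0.26 over the subunits and -0.01 over all genes. With mutation 3 against wild type, 4 subunits were higher, 2 were lower and 4 did not pass, where 59.3% of all genes were called, 28.1% higher and 31.2% lower. Libraries did not overlap in 7 subunits and in 61% of all genes, and the medians were 0.09 and -0.01. These comparisons share the wild-type libraries and are not independent of each other. With wild-type replicate 1 left out, the subunits called against wild type were 9 with mutation 1 (6 higher), 10 with mutation 2 (4 higher) and 7 with mutation 3 (5 higher). Of all 15806 genes tested in that fit, 82.7% were called with mutation 1, 67.9% with mutation 2 and 77.1% with mutation 3.

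**Figure D3:**
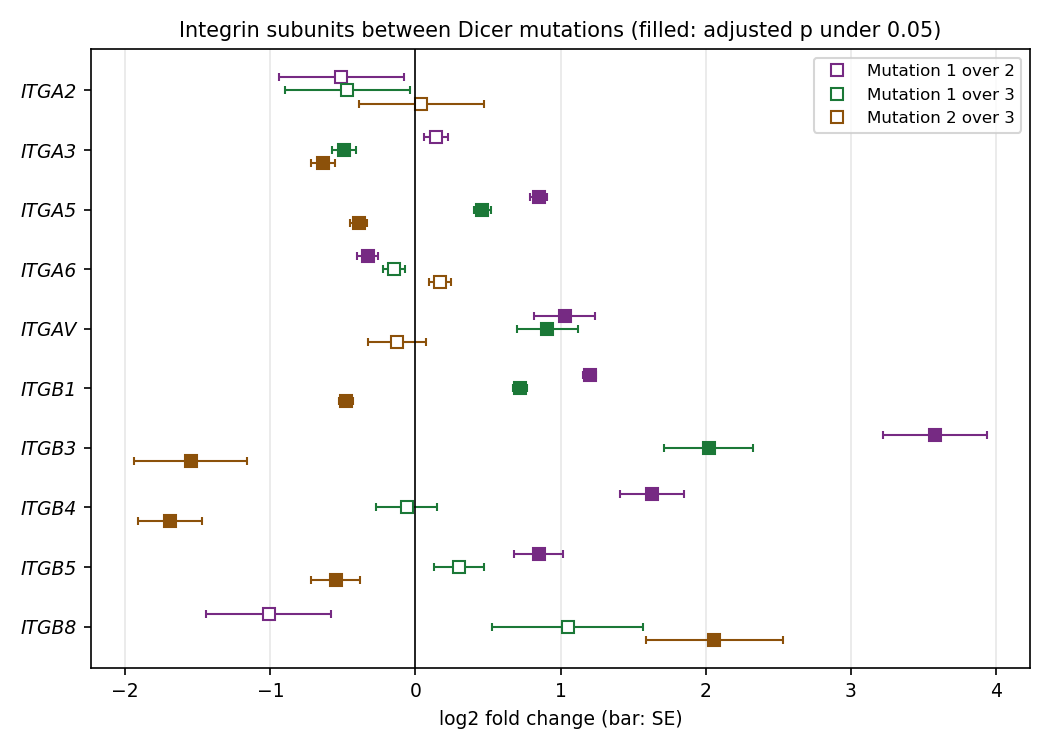
Log2 fold change with SE (x axis) of each integrin subunit (y axis) between Dicer mutations, mutation 1 over 2, mutation 1 over 3 and mutation 2 over 3. Filled squares have an adjusted p under 0.05. ITGB3 reaches 3.58 for mutation 1 over 2, and ITGB4 lies at 1.63 for mutation 1 over 2 and at -1.69 for mutation 2 over 3, while its value for mutation 1 over 3 is -0.06.

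The mutants can be compared without the wild-type libraries entering either mean, although those libraries still contribute to the estimate of spread. Mutation 1 against mutation 2 gave 6 subunits higher, 1 lower and 3 that did not pass, against a background of 65.4% of genes called, 31.8% higher and 33.6% lower. The 6 were ITGB1, ITGA5, ITGAV, ITGB3, ITGB4 and ITGB5, and the 1 that was lower was ITGA6 (log2 -0.33, adjusted p = 0.00285). Libraries did not overlap in 9 subunits and in 81.6% of all genes, and the median log2 fold change was 0.85 over the subunits and -0.03 over all genes. Mutation 1 against mutation 3 gave 4 higher, 1 lower and 5 that did not pass, where 42.8% of genes were called, 20.2% higher and 22.5% lower. ITGB1, ITGA5, ITGAV and ITGB3 were the 4, ITGA3 was the 1 that was lower, and ITGB4 did not differ by the test (log2 -0.06, SE 0.21, adjusted p = 0.852). Mutation 2 against mutation 3 gave 1 higher and 6 lower, where 52.9% of genes were called, 27.2% higher and 25.7% lower. The 1 that was higher was ITGB8, and the 6 were ITGA3, ITGA5, ITGB1, ITGB3, ITGB4 and ITGB5. Libraries did not overlap in 8 subunits against 69.8% of genes for mutation 1 over 3, and in 9 against 75.9% for mutation 2 over 3. Median log2 fold changes of the subunits were 0.38 for mutation 1 over 3 and -0.44 for mutation 2 over 3, where those of all genes were -0.01 and 0. In the fit without wild-type replicate 1, 10 subunits were called for mutation 1 over 2, 10 for mutation 1 over 3 and 9 for mutation 2 over 3, where 80.2%, 66.6% and 72.9% of all genes were called.

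Levels of different subunits were compared per length, as TPM, counts divided by length and scaled to the same sum in every library, over the summed exon length of GENCODE v29. ITGB1 led with mutation 1 at 1115.8 ± 25.7 TPM (SD, n = 3), followed by ITGA3 at 598.3 ± 14.9, ITGB4 at 539.1 ± 13.5 and ITGB5 at 257.2 ± 2.71. The next were ITGA6 at 137.1 ± 3.91, ITGA5 at 117.1 ± 0.554, ITGAV at 107.9 ± 5.74 and ITGA2 at 30.8 ± 0.164, and ITGB3 and ITGB8 came last at 4.3 ± 0.797 and 0.197 ± 0.101. No neighbours overlapped in that order.

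With mutation 2, ITGA3 led at 585.1 ± 31.6 TPM, ahead of ITGB1 at 525.1 ± 9.94. ITGB4 at 188.5 ± 11.1 and ITGA6 at 185.5 ± 5.6 did not differ beyond their spread, nor did ITGB8 at 0.432 ± 0.0999 and ITGB3 at 0.379 ± 0.127. Between these pairs came ITGB5 at 154.2 ± 4.01, ITGA5 at 70.3 ± 4.15, ITGAV at 56.9 ± 2.07 and ITGA2 at 47.5 ± 2.67. With mutation 3 the order began with ITGA3 at 791.4 ± 11.3 TPM, ITGB1 at 638.6 ± 15.1 and ITGB4 at 527.9 ± 10.2. It went on with ITGB5 at 197 ± 3.92, ITGA6 at 143.4 ± 4.51, ITGA5 at 80.1 ± 2.11, ITGAV at 54.2 ± 1.54 and ITGA2 at 40.2 ± 1.88, and ended with ITGB3 at 0.996 ± 0.174 and ITGB8 at 0.0884 ± 0.0447, with no overlap between neighbours.

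With wild type, ITGB1 led at 756.8 ± 79.5 TPM, then ITGA3 at 632.1 ± 34.3 and ITGB4 at 327.8 ± 99.5. ITGA6 at 144.6 ± 6.4, ITGB5 at 142.1 ± 60.8, ITGA2 at 105.3 ± 63.6 and ITGA5 at 90.9 ± 1.3 each overlapped their neighbour, and ITGAV at 38.6 ± 19.1, ITGB3 at 1.67 ± 0.837 and ITGB8 at 0.247 ± 0.0888 followed. Measured over the longest transcript, ITGA5 passed ITGA6 with mutation 1, ITGB5 passed ITGB4 and ITGA6 with mutation 2, and ITGB5 passed ITGA6 and ITGA5 passed ITGA2 with wild type.

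**Figure D4:**
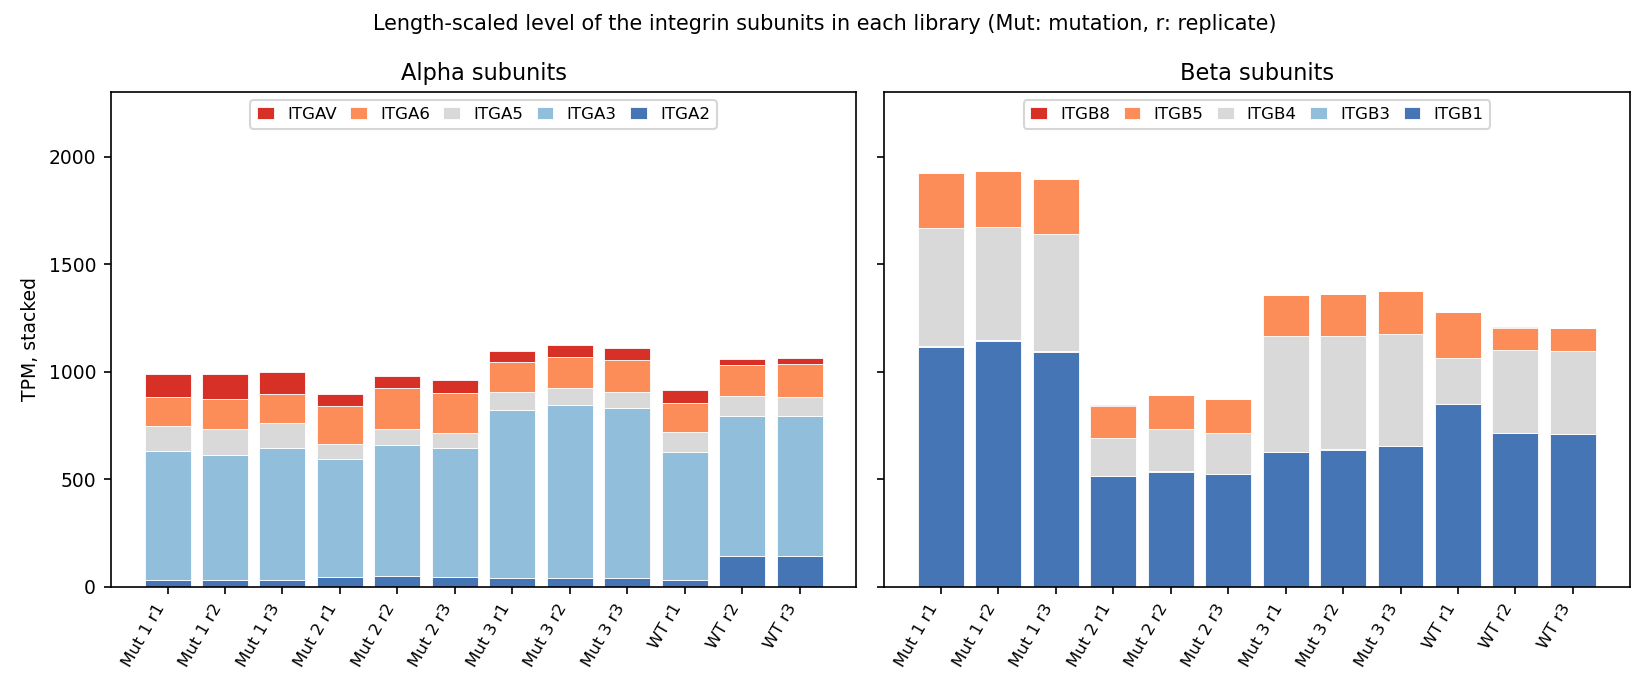
Level per length (TPM, stacked bars from 0) of the 5 alpha subunits (left) and the 5 beta subunits (right) in each of the 12 libraries. The alpha stacks lie between 897.3 and 1122 TPM in every library, while the beta stacks lie between 1897 and 1931 TPM with mutation 1 and between 842.5 and 890.9 with mutation 2.

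Summed per length, the 5 alpha chains spanned a narrower range across the libraries than the 5 beta chains. The alpha sum was 987.2 to 997.8 TPM with mutation 1, 897.3 to 977.9 with mutation 2, 1095 to 1122 with mutation 3, and 914.7, 1059 and 1061 in wild-type replicates 1 to 3. The beta sum was 1897 to 1931 TPM with mutation 1, 842.5 to 890.9 with mutation 2, 1358 to 1375 with mutation 3, and 1277, 1205 and 1204 in wild type. Alpha over beta therefore came to 0.511 to 0.526 with mutation 1, 1.06 to 1.1 with mutation 2, 0.807 to 0.824 with mutation 3, and 0.716, 0.879 and 0.881 in wild type. Mutation 1 lay below and mutation 2 above every other library in this ratio. These sums and ratios describe mRNA of the 10 chains alone and were given no test. They and the ratios and shares below use summed exon length, and their size depends on that choice. With mutation 3, for example, ITGA3 and ITGB1 averaged 791.4 and 638.6 TPM over summed exon length. Over the longest transcript they averaged 1082.7 and 775.7 TPM.

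Ratios of chains that pair with each other were taken per library, as a description. ITGB4 over ITGA6, the 2 chains of the hemidesmosome receptor, was 3.94 ± 0.205 with mutation 1, 1.02 ± 0.032 with mutation 2 and 3.68 ± 0.185 with mutation 3 (TPM ratio, SD, n = 3). In wild type it ran from 1.55 to 2.62, above every mutation 2 library and below every mutation 1 and 3 library. ITGA3 over ITGB1 was 0.537 ± 0.0256 with mutation 1, 1.11 ± 0.0379 with mutation 2 and 1.24 ± 0.0321 with mutation 3, against 0.698 to 0.919 in wild type. ITGA6 over ITGB1 was 0.123 ± 0.001 with mutation 1, 0.353 ± 0.00462 with mutation 2 and 0.225 ± 0.00153 with mutation 3, against 0.162 to 0.211 in wild type. The groups were narrow for both of these ratios and none of the mutant ranges overlapped wild type.

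Ratios of the fibronectin and vitronectin receptor chains came next. ITGA5 over ITGB1, the fibronectin receptor pair, was 0.105 ± 0.002 with mutation 1, 0.134 ± 0.00569 with mutation 2, 0.126 ± 0.00611 with mutation 3 and 0.121 ± 0.0104 with wild type. ITGB5 over ITGAV was 2.39 ± 0.0985 with mutation 1, 2.71 ± 0.0929 with mutation 2, 3.63 ± 0.0289 with mutation 3 and 3.75 ± 0.214 with wild type, so that mutations 1 and 2 lay below the other libraries. ITGB3 over ITGAV was 0.0402 ± 0.0093 with mutation 1, 0.0066 ± 0.00197 with mutation 2, 0.0183 ± 0.00261 with mutation 3 and 0.0435 ± 0.00907 with wild type. Within the beta sum, ITGB1 made up 58.2 ± 0.85% with mutation 1, 60.5 ± 0.551% with mutation 2, 46.8 ± 0.8% with mutation 3 and 61.5 ± 4.33% with wild type. ITGB4 made up 28.1 ± 0.896%, 21.7 ± 0.651% and 38.7 ± 1% with mutations 1, 2 and 3, and 16.7 to 32.1% with wild type.

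The genes whose pattern lay closest to each subunit were found by the root mean square difference of centred log2 CPM over the 12 libraries, with 1 count added, as a description with no test. CD151, a tetraspanin that binds laminin-receptor integrins, was the gene nearest to ITGB1 at 0.0703, followed by UBE2C at 0.0705. LOXL2, a lysyl oxidase of the matrix, was nearest to ITGA5 at 0.0534, and SVBP to ITGB5 at 0.0492. For ITGA3 the nearest gene was CSNK1D at 0.0663, for ITGA6 TMEM181 at 0.044, for ITGAV CREG1 at 0.0808, for ITGB4 LMBR1L at 0.0865 and for ITGA2 ST6GAL1 at 0.146. Nearest to the scarce ITGB3 and ITGB8 were AZGP1 at 0.36 and OAS3 at 0.466. These 2 subunits also varied more, with SDs over the libraries of 1.33 and 0.901, against 0.165 for ITGA6. The differences are not scaled to that spread, so they do not rank the subunits by closeness of match.

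Of 16 other integrin subunits, 8 had enough counts to test, and 3 were higher and 3 lower with mutation 1, 1 and 2 with mutation 2, and 1 and 3 with mutation 3, each against wild type. The shares of all genes called in these comparisons were 69%, 37% and 59.3%. The 3 with the lowest F test p were ITGB2, ITGA2B and ITGAE. ITGB2, the leukocyte beta chain, was at 2.53, 1.41 and 1.52 CPM with mutation 1, 0.282, 0.519 and 0.508 with mutation 2 and 0.188, 0.131 and 0.222 with mutation 3. The wild-type libraries had 5.25, 82.3 and 82 CPM, so all mutant libraries lay below all wild-type libraries and the wild-type group was split. ITGB2 fell in all 3, with log2 fold changes of -4.95 for mutation 1 (adjusted p = 0.000344), -6.97 for mutation 2 (adjusted p = 0.000394) and -8.24 for mutation 3 (adjusted p = 0.000102). ITGA2B, the platelet alpha chain, rose with mutation 1 (log2 2.63, adjusted p = 0.000264) to 3.42 to 3.67 CPM, against 0.323 to 1.05 CPM in wild type. ITGAE, an alpha chain that binds E-cadherin, fell with mutation 1 (log2 -0.96, adjusted p = 0.000205) and mutation 3 (log2 -0.85, adjusted p = 0.000606). Its mutation 2 value of -0.38 (adjusted p = 0.0645) became -0.56 without wild-type replicate 1 (adjusted p = 1.09e-12). The ITGA2B values then were 3.38 with mutation 1 and 2 with mutation 3, where all libraries gave 1.23 with mutation 3 (adjusted p = 0.0382).

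**Figure D5:**
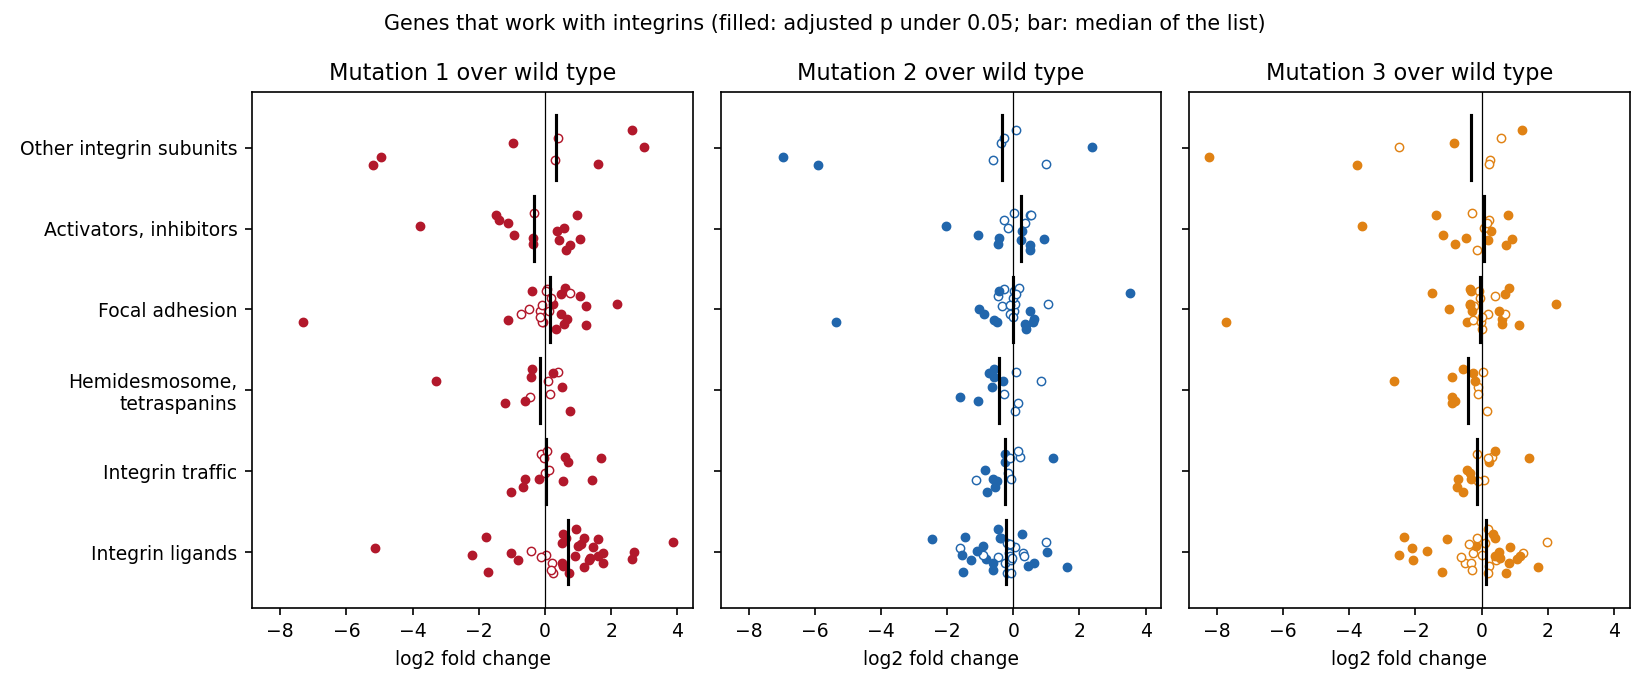
Log2 fold change (x axis) with each Dicer mutation over wild type for genes of 6 lists (y axis) that work with integrins; each point is a gene, filled where adjusted p is under 0.05, and the black bar is the list's median. For the ligand list the median is 0.69 under mutation 1, -0.23 under mutation 2 and 0.15 under mutation 3.

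Integrin ligands, the matrix proteins and latent factors that these receptors bind, were counted next. Of 34 ligand genes tested out of 43 listed, 22 were higher and 6 lower with mutation 1, 5 higher and 13 lower with mutation 2, and 11 higher and 8 lower with mutation 3. The median log2 fold changes were 0.69, -0.23 and 0.15, beside -0.04, -0.01 and -0.01 over all genes. Between mutants, 24 ligands were higher and 3 lower with mutation 1 than with mutation 2, and 21 higher and 4 lower with mutation 1 than with mutation 3. All genes were called at 65.4% (31.8% higher, 33.6% lower) and 42.8% (20.2% higher, 22.5% lower) in the same comparisons. Removing wild-type replicate 1 gave ligand counts against wild type of 23 and 8 with mutation 1, 12 and 19 with mutation 2, and 19 and 14 with mutation 3, where 82.7%, 67.9% and 77.1% of all genes were called. In the fit to all libraries those shares were 69%, 37% and 59.3%.

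TNC, tenascin-C of the provisional matrix, held 428.1, 404 and 423.2 CPM with mutation 1, 128.2, 134.7 and 133.8 with mutation 2, 91.3, 95.6 and 95.7 with mutation 3, and 70.7, 62.2 and 62.4 in wild-type replicates 1 to 3. It rose in all 3 mutants, and no mutant library overlapped wild type. The log2 fold changes were 2.68 with mutation 1 (adjusted p = 6.3e-10), 1.02 with mutation 2 (adjusted p = 2.81e-06) and 0.53 with mutation 3 (adjusted p = 3.12e-05). TGFB1, which is released from its latent form by ITGAV receptors, held 260, 246.6 and 269.8 CPM with mutation 1, 69, 69.5 and 68 with mutation 2, 120.1, 115.7 and 109.1 with mutation 3, and 134.9, 129.8 and 122.9 in wild type. TGFB1 rose with mutation 1 (log2 1, adjusted p = 1.21e-07), fell by 0.91 with mutation 2 (adjusted p = 3.85e-06) and fell by 0.17 with mutation 3 (adjusted p = 0.0297). LAMB2, a laminin beta chain, rose with mutation 1 (log2 1.17, adjusted p = 2.13e-08) and mutation 3 (log2 0.39, adjusted p = 0.000124) and fell by 0.39 with mutation 2 (adjusted p = 0.00033).

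Among 15 tested activators and inhibitors of integrins, 7 were higher and 7 lower with mutation 1, 6 and 4 with mutation 2, and 5 and 5 with mutation 3. Over all genes 69%, 37% and 59.3% were called. RAP1A, a small GTPase that activates integrins through talin, rose with mutation 1 (log2 0.59), with log2 fold changes of -0.15 (adjusted p = 0.0858) with mutation 2 and 0.08 (adjusted p = 0.309) with mutation 3. FERMT1, an epithelial kindlin, fell with mutation 1 (log2 -1.48) and mutation 3 (log2 -1.38), and its log2 fold change was 0.53 with mutation 2 (adjusted p = 0.0689). Without wild-type replicate 1, FERMT1 with mutation 2 came to 0.29 (adjusted p = 0.00443) and RAP1A with mutation 3 to 0.13 (adjusted p = 0.0211).

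Of 26 focal adhesion genes tested, 11 were higher and 3 lower with mutation 1, 7 and 6 with mutation 2, and 7 and 9 with mutation 3. The background of all genes called was 69%, 37% and 59.3%. TNS4, a tensin that lacks the actin-binding part of its family, fell in all 3 mutants, to 0.0704 to 0.479 CPM with mutation 1, 0.704 to 1.13 with mutation 2 and 0.148 to 0.196 with mutation 3, against 13.1, 51 and 53.4 CPM in the wild-type libraries 1, 2 and 3. TNS1, a tensin that links integrin tails to actin, rose with mutation 2 (log2 3.52) to 40.1 to 43.4 CPM and fell by 1.49 with mutation 3, against 6.96, 2.18 and 1.94 CPM in wild-type replicates 1 to 3. The TNS1 values without wild-type replicate 1 were 4.35 with mutation 2, -0.67 with mutation 3 (adjusted p = 0.0165) and 1.58 with mutation 1 (adjusted p = 6.95e-14), which had been 0.75 (adjusted p = 0.103). CRKL, an adaptor of focal adhesion signalling, rose with mutation 1 (log2 0.6) and mutation 3 (log2 0.83), and its mutation 2 value of 0.18 (adjusted p = 0.0534) became 0.24 without wild-type replicate 1 (adjusted p = 1.57e-06).

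Of the 12 hemidesmosome and tetraspanin partners, 3 were higher and 5 lower with mutation 1, 0 and 7 with mutation 2, and 0 and 8 with mutation 3. Among all genes 69% were called with mutation 1 (36.5% lower), 37% with mutation 2 (20.1% lower) and 59.3% with mutation 3 (31.2% lower). SLC3A2, which binds the tails of beta chains, fell in all 3 mutants (log2 -0.42, -0.57 and -0.9 with mutations 1, 2 and 3). CD151 held 706.3, 662.8 and 703.8 CPM with mutation 1, 311.2, 312.6 and 297.1 with mutation 2, 461.9, 437.2 and 421.4 with mutation 3, and 504.7, 463.8 and 468.4 in wild type. It rose with mutation 1 (log2 0.53, adjusted p = 1.37e-05) and fell by 0.64 with mutation 2 (adjusted p = 3.19e-05). COL17A1, the collagen of the hemidesmosome, fell with mutation 1 (log2 -3.3) and mutation 3 (log2 -2.64), groups in which ITGB4 rose, and had a log2 fold change of 0.83 with mutation 2 (adjusted p = 0.0652), where ITGB4 fell. That value became 0.47 without wild-type replicate 1 (adjusted p = 8.63e-08), and the CD151 value with mutation 3, -0.12 with all libraries (adjusted p = 0.0931), became -0.08 (adjusted p = 0.0241).

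Of 14 genes of integrin traffic tested, 5 were higher and 4 lower with mutation 1, 1 and 7 with mutation 2, and 3 and 6 with mutation 3. All genes were called at 69%, 37% and 59.3%. RAB5A, a GTPase of early endosomes, rose with mutation 1 (log2 0.69) and mutation 3 (log2 0.22) and fell by 0.26 with mutation 2. RAB11FIP1, a recycling adaptor, rose in all 3 mutants (log2 1.69, 1.19 and 1.43), and HAX1 fell in all 3 (log2 -0.61, -0.62 and -0.72). Once wild-type replicate 1 was removed, the hemidesmosome and tetraspanin list had 3 higher and 6 lower with mutation 1, 2 and 10 with mutation 2, and 1 and 11 with mutation 3. The focal adhesion list then had 14 and 8, 10 and 11, and 10 and 13, and the traffic list 8 and 5, 3 and 7, and 6 and 8. The activators and inhibitors had 7 and 7, 9 and 5, and 7 and 5, and the other integrin subunits 3 and 3, 2 and 4, and 1 and 3. In that fit 82.7%, 67.9% and 77.1% of all genes were called with mutations 1, 2 and 3. Median log2 fold changes in the fit to all libraries were -0.15, -0.45 and -0.41 for hemidesmosome and tetraspanin partners, 0.14, 0.01 and -0.04 for focal adhesion, 0.02, -0.26 and -0.14 for traffic, -0.33, 0.22 and 0.08 for activators and inhibitors, and 0.35, -0.33 and -0.32 for other subunits, with mutations 1, 2 and 3 in that order.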

How the data were processed

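Gene counts of 12 RNA-seq libraries of MDA-MB-231 cells, 3 for each of 4 Dicer plasmids, were used as deposited by the authors. Per the file headers, the authors counted read pairs over exons of hg38 genes with featureCounts 2.0.6, without strand and with a mapping quality of at least 10. Cutadapt 1.9.1, FastQC 0.11.8, SAMtools, STAR and DESeq2 are further tools listed in the submitters' processing notes. Library totals of 13507341 to 17078273 counts set the precision, and the scarce ITGB3 and ITGB8 rest on few counts.

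Exon lengths came from GENCODE v29, whose genes held 99.7% of counts. Symbols were matched by gene ID from a separate source and covered 99.6% of counts. Genes passing the filterByExpr filter of edgeR (minimum count 10, minimum total 15), 15094 in all and all 10 subunits among them, were fitted with edgeR 4.0.16 in R 4.3.3. The fit was a robust quasi-likelihood model over all 12 libraries after TMM scaling, with 6 contrasts and an F test across the 4 groups. P-values were adjusted by the Benjamini-Hochberg method over all genes tested, with a threshold of 0.05. The SE of a log2 fold change was its size divided by the square root of F. The code was tested on simulated counts with few changed genes and no outlying library. That test does not give the error rate in these data.

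All 10 subunits were named, with the 2 nearest genes of each considered for likeness and, of each of 6 lists, the 3 genes with the lowest F test p. A gene that this rule picked is not reported here. The subunits and lists were chosen with earlier results of these data known. Separate cultures are not stated in the labels. The p-values therefore reflect the spread among the 12 libraries alone, and that spread may be technical. Alternatives were other scalings (RLE size factors, library totals), no filter, DESeq2 1.42.0, mitochondrially encoded genes left out, a fit to the 2 groups compared, and leaving out each library.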

Additional observations from a re-analysis of the deposited data

How the results depend on the processing

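The text above gives, out of 18 alternatives, how many ended the call of a subunit. The fit to the 2 groups compared called 4 subunits and 2589 genes for mutation 2 against wild type (7 and 5588 in the fit to all libraries), 2 subunits for mutation 3 against wild type (6), and 9 subunits and 10073 genes for mutation 1 against mutation 3 (5 and 6454). Without the filter on low counts 3 subunits were called for mutation 3 against wild type. The fit to all libraries called 8948 genes in that comparison. Counts of all genes for it in the 2-group fit and without the filter are not given here. Its subunit counts in those settings therefore stand without a background. Leaving out each library gave 7 to 9 subunits and 9644 to 13064 genes for mutation 1 against wild type, 5 to 10 and 4208 to 10726 for mutation 2, and 3 to 7 and 7969 to 12179 for mutation 3. Between mutants it gave 7 to 10 and 8963 to 12677 (mutation 1 over 2), 5 to 10 and 5146 to 10521 (1 over 3), and 6 to 9 and 6763 to 11518 (2 over 3). The F test then called 9 to 10 subunits and 12013 to 15006 genes.

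Log2 fold changes close to 0 turned sign. Under library totals, against wild type with mutation 1, ITGA3 came to -0.199 (adjusted p = 0.0396) and ITGA6 to -0.197 (adjusted p = 0.0282). Both were then called lower, so that scaling called 9 subunits with mutation 1, 6 higher and 3 lower. Of all genes called in that comparison under library totals, 36.1% were higher. How many genes were called there is not given here, so the count of 9 subunits stands without a background. ITGB1 with mutation 3 kept its sign and was also called lower (-0.18, adjusted p = 0.0121). ITGA5 came to -0.12 with mutation 3 (adjusted p = 0.0848), and ITGA3 to -0.0648 for mutation 1 over 2 (adjusted p = 0.48). In the 2-group fit ITGA3 was -0.00212 with mutation 1 and ITGA5 -0.0145 with mutation 3. Leaving out each library gave ranges that crossed 0. With mutation 1 these were -0.084 to 0.0624 for ITGA3, -0.0721 to 0.0667 for ITGA6 and -0.717 to 0.0627 for ITGB8. With mutation 2 ITGB5 ran from -0.00791 to 0.457, and with mutation 3 ITGA5 ran from -0.0426 to 0.0254. Library totals moved the median log2 fold change of all genes to -0.25 for mutation 1 over wild type, -0.136 for mutation 3 over wild type, -0.235 for mutation 1 over 2, -0.107 for mutation 1 over 3 and 0.118 for mutation 2 over 3. The share of called genes that were higher was then 36.1% for mutation 1 over wild type, against 47.1% after TMM scaling, 37% against 48.6% for mutation 1 over 2, and 36.2% against 47.3% for mutation 1 over 3. The cause of these changes was not tested. No paired analysis was possible because the labels number the replicates of wild type alone. ITGB8 rests on 3 to 34 counts per library.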
